A study of Rattus norvegicus with 70 samples.

Results

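DNA methylation around transcript starts in rat liver was compared between animals initiated with diethylnitrosamine (DEN), a genotoxic carcinogen, and animals initiated with thioacetamide or methapyrilene, carcinogens classed as nongenotoxic. Members were chosen by their group labels and by nothing measured. They were the 5 DEN30_PB libraries and the 10 libraries of TAA45_PB and MP100_PB at each of 2 times, which makes 30 of the 70 libraries of the series. DEN30_PB received DEN at 30 mg/kg, TAA45_PB thioacetamide at 45 mg/kg and MP100_PB methapyrilene at 100 mg/kg. Dosing lasted 1 week for DEN30_PB, shortened because body weight fell markedly, whereas the labels give 1 or 2 weeks for the other groups without saying which. All 3 groups then had 2 weeks without compound, followed by the tumour promoter phenobarbital at 500 ppm in the drinking water. All rats were of the strain Crj:CD(SD)IGS, an outbred stock, and all had a partial hepatectomy after 1 week of phenobarbital. Liver was taken at that operation and at terminal euthanasia, after 6 weeks of phenobarbital, when it had regrown in every group. Compound, dose and possibly length of dosing differ together between DEN30_PB and the others, so they cannot be told apart. Each group is 5 livers by its labels, which add nothing on independence, so p-values measure the spread between these libraries. Same-numbered libraries of the 2 times may come from the same rats, which the labels do not state.

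DEN is activated in hepatocytes by cytochrome P450 enzymes and then alkylates DNA, which leaves mutations as well as killing cells. Thioacetamide is oxidised by the same class of enzymes to reactive metabolites that bind protein and cause necrosis and fibrosis. Methapyrilene, a withdrawn antihistamine, damages mitochondria of rat hepatocytes around the portal tracts. Phenobarbital then favours the outgrowth of altered hepatocyte foci. In mammals methyl groups sit mostly on cytosines of CG pairs, and CG-dense promoters of active genes usually carry few of them. A methyl-binding protein pulls down fragments with several methylated CG pairs, so the signal of a region grows with its CG density and with the share of these that is methylated. Liver holds several cell types, and the signal cannot tell a change within hepatocytes from a change in the mix of cells. Expression was not analysed here, so the tissue label was not checked against marker levels.

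Each of 17174 regions spanned 5625 bp around a transcript start, and its deposited value is reads scaled to a library total of 50 M, called the signal here. The 30 libraries held between 1.09 M and 1.64 M reads in these regions, with a median of 41 to 65 reads per region. In 5 of the 30 libraries fewer than 1% of regions had no read. These are called weakly enriched here, and they were DEN30_PB replicates 3 and 4 at hepatectomy, and at terminal euthanasia DEN30_PB replicate 3, TAA45_PB replicate 4 and MP100_PB replicate 3. Library numbers in the titles fall into 4 runs, called blocks here, whose meaning the labels do not give. DEN30_PB and TAA45_PB had the same blocks, 1, 3 and 4, whereas MP100_PB had block 2 in place of block 1. Replicate 5 of each of the 3 groups belonged to block 4, whose 10 libraries carried scaling totals identical to those of 10 libraries of block 1. None of the 12 library-level comparisons at a time, of reads in regions, regions without a read, median signal and the contrast of CG-rich with CG-poor promoters, passed an exact permutation test (smallest Benjamini-Hochberg adjusted p = 0.488 at hepatectomy and 0.866 at terminal euthanasia). Reads in regions averaged 1.32 ± 0.158 M in DEN30_PB, against 1.45 ± 0.112 M in the other 10 libraries at hepatectomy (SD).

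The results turn on a few regions, and the 250 bases before the RefSeq start of 4 of their genes are shown because the assay reads CG pairs and these promoters differ widely in them. Sequences are from RefSeq on the build GRCr8, CG is in capitals, and the coordinates are not those of the deposited files. Of 6 genes looked up, 5 matched, and Tbx3 did not. Among 33469 rat promoters, 92.2% hold at least 1 CG in this window, counted on 1 strand since CG reads the same on the other.
Ms4a4c, 1 CG: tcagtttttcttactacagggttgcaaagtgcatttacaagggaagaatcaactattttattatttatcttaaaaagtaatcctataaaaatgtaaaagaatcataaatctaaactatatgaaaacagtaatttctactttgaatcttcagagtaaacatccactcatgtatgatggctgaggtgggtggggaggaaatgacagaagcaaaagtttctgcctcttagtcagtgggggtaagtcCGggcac
Ercc5, 19 CG: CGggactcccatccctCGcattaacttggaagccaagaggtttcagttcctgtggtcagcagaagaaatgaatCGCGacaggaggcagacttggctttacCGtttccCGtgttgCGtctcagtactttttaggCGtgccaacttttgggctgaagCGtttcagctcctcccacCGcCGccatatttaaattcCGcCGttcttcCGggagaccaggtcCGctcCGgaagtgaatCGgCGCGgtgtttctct
Mff, 11 CG: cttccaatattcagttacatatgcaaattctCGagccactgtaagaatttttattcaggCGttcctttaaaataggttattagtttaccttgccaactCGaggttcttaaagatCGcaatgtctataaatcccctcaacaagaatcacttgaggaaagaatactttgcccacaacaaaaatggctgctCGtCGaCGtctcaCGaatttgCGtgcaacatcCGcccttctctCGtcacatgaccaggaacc
Lrrc2, first start, 3 CG: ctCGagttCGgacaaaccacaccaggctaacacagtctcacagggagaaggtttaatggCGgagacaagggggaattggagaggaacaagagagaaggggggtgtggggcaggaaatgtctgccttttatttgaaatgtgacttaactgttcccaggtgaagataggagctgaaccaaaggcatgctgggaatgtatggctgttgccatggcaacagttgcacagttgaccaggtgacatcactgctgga
Lrrc2, second start, 11 CG: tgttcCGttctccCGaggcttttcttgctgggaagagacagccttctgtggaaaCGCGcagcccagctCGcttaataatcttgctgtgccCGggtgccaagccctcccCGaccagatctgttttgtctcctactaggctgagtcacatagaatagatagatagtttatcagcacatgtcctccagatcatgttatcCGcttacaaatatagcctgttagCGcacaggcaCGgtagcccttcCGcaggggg
The Ms4a4c window, chr1:217549611-217549860 on the plus strand, has only 1 CG, and 18.1% of promoters have as few or fewer. RefSeq places the gene on the opposite strand to the deposited files, where 95.3% of 10191 tested regions had the strand of their RefSeq gene, so the window may lie outside the measured region. The Ercc5 window, chr9:53801221-53801470 on the plus strand, is CG-rich, with as few or fewer in 83.3% of promoters. The Mff window, chr9:91455681-91455930 on the plus strand, has a count that 68.5% of promoters do not exceed. Lrrc2 has 2 annotated starts, at chr8:119814274-119814523 and chr8:119816365-119816614, both on the plus strand. The only microRNA of the results with an entry in the table was rno-miR-3569, at chr1:94969072-94969092 on the plus strand, shown with its seed, bases 2 to 8, in capitals and with U for T.
rno-miR-3569: gGAGGACAgcagacucagguc

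At partial hepatectomy, 1 region differed between DEN30_PB and the mean of TAA45_PB and MP100_PB. It was the start of Ms4a4c, a membrane protein of the MS4A family to which the B-cell marker Ms4a1 also belongs, and its signal was lower in DEN30_PB. Against MP100_PB alone, 1 region differed, the start of Tbx3, a T-box transcription factor of development, again lower in DEN30_PB. Against TAA45_PB alone no region passed. No region passed the adjusted threshold against each of the 2 compounds.

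The test was limma on log2(signal + 1) with 1 mean for each of the 7 groups of that time, and p-values were Benjamini-Hochberg adjusted over all tested regions and held to 0.05. The groups not compared entered only through the filter and the shared spread. They were DEN3_PB (low-dose DEN), APAP1000_PB (acetaminophen) and MC_PB (methylcellulose), all given phenobarbital, and MC_water (methylcellulose), given water without phenobarbital. Of 15809 tested regions, 1 passed in the pooled comparison (0.00633%), 0 against TAA45_PB (0.0%), 1 against MP100_PB (0.00633%) and 0 between TAA45_PB and MP100_PB (0.0%). At an unadjusted p under 0.05 the pooled comparison had 990 regions (6.26%), 425 higher (2.69%) and 565 lower (3.57%) in DEN30_PB. Without any difference, about 5% of regions would have such a p at either time if the model held. DEN30_PB against TAA45_PB had 817 (5.17%) and DEN30_PB against MP100_PB had 867 (5.48%). TAA45_PB against MP100_PB had 427 (2.7%). The pooled contrast averages 10 libraries on 1 side and the single contrasts 5, so these shares are not on an equal footing, and their difference was not tested. The median difference over all tested regions was -0.03 on the log2 scale.

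Ms4a4c (chr1:214330014-214335639 in the files' coordinates, minus strand) had signals of 18.0, 5.26, 24.9, 18.1 and 17.5 in DEN30_PB replicates 1 to 5. TAA45_PB had 34.2, 88.0, 23.8, 61.7 and 50.6, and MP100_PB had 36.2, 37.0, 26.5, 47.9 and 92.2. All DEN30_PB libraries lay below the others except replicate 3, which lay just above replicate 3 of TAA45_PB. The pooled difference was -1.52 on the log2 scale (SE 0.29, limma adjusted p = 0.0261). It was -1.57 against TAA45_PB (adjusted p = 0.103) and -1.47 against MP100_PB (adjusted p = 0.302), and neither passed. Within blocks the difference from TAA45_PB was -2.36 in block 1, -0.83 in block 3 and -1.48 in block 4, and the difference from MP100_PB was -0.72 in block 3 and -2.34 in block 4. The promoted control MC_PB, given 0.5% methylcellulose before phenobarbital, averaged 35.7 ± 13.8 (SD, n = 5). Ms4a4c has a mean signal below the median region, so it fell outside the naming rule and was named after its values were seen. The reads behind it were 5 to 26 per DEN30_PB library. RefSeq lists a second gene and a pseudogene of the same name root, Ms4a4cl1 and Ms4a4c-ps1, on the same chromosome, so reads may be shared between copies. The call was lost in 12 of 25 alternative settings, with adjusted p up to 0.451. Among these were the settings without DEN30_PB replicate 1, 2 or 5, without TAA45_PB replicate 2, 4 or 5, and without MP100_PB replicate 4 or 5.

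Tbx3 (chr12:38165545-38171170, minus strand) had signals of 75.1, 112, 54.7, 138 and 113 in DEN30_PB. MP100_PB had 216, 240, 144, 180 and 238, and TAA45_PB lay between them with 124, 141, 94.1, 137 and 172. The highest DEN30_PB library stayed below the lowest of MP100_PB and overlapped TAA45_PB. DEN30_PB minus MP100_PB was -1.09 (SE 0.20, limma adjusted p = 0.0124), and it passed in 18 of 25 alternatives. It was lost without DEN30_PB replicate 1 or 3 or MP100_PB replicate 1, 2 or 5, with an adjusted p of up to 0.202. DEN30_PB minus TAA45_PB was -0.48 (unadjusted p = 0.0177), and TAA45_PB minus MP100_PB was -0.60 (unadjusted p = 0.00327). The order of the 3 groups was therefore DEN30_PB, TAA45_PB, MP100_PB from low to high, and only the outer pair passed the adjusted test. MC_PB averaged 184 ± 24.8, near MP100_PB.

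**Figure D1:**
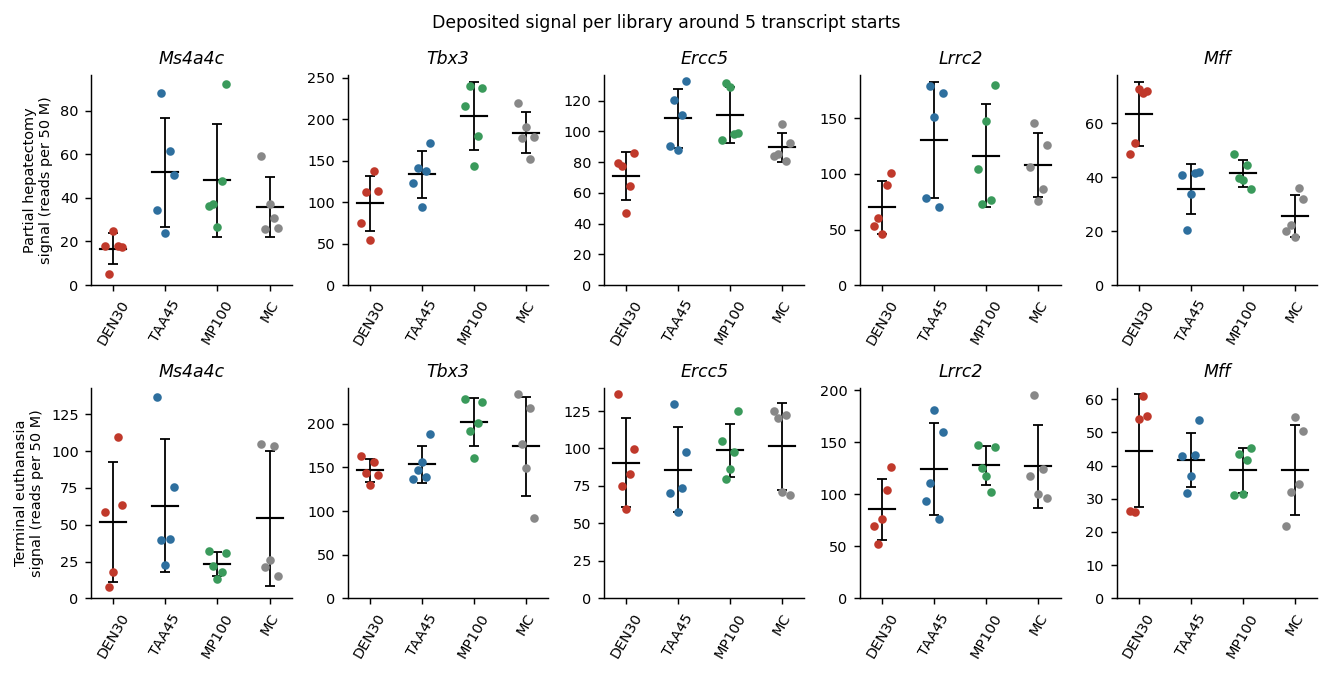
Signal per library (reads scaled to 50 M, linear axis from 0) around the starts of Ms4a4c, Tbx3, Ercc5, Lrrc2 and Mff at partial hepatectomy (top) and terminal euthanasia (bottom). Points are libraries, long bars the mean and whiskers 1 SD (n = 5 per group); MC is the promoted control MC_PB. At hepatectomy DEN30 lies below TAA45 and MP100 in Ms4a4c, Ercc5 and Lrrc2 on average and above them in Mff, and of these only Lrrc2 keeps a mean below both at terminal euthanasia by a similar distance.

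A weaker criterion asked which differences held against each compound, meaning an unadjusted p under 0.05 with the same sign against TAA45_PB and against MP100_PB. At hepatectomy 197 of 15809 regions met it (1.25%), 72 higher (0.455%) and 125 lower (0.791%) in DEN30_PB, and 0 regions met it with opposite signs. Both contrasts use the same DEN30_PB libraries, so agreement between them is partly built in, and the count is a description. How many regions of these libraries would meet the criterion at either time without a difference between the groups was not computed. The simulated data on which the fit was tested included a case without a difference. They used the same set spread for every region, so their count is not given as a yardstick here. The 72 higher regions had a median signal of 17.4 and the 125 lower ones a median of 96.9, against 59.4 over all tested regions. Their median differences were 1.07 and -0.50.

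Much of this set was lost without the weakly enriched DEN30_PB replicates 3 and 4. Without the weakly enriched libraries of that time, which leaves 3 in DEN30_PB, 130 regions met the criterion, but only 16 of the 72 higher regions (22.2%) and 21 of the 125 lower ones (16.8%) were among them. Without block 3, to which both of these libraries belong, 8 of the 72 and 20 of the 125 remained. No setting left out any other pair of DEN30_PB libraries. Weak enrichment, block and the smaller group therefore cannot be told apart here. Leaving out 1 library gave 309 regions without DEN30_PB replicate 2, 97 without replicate 3, 107 without replicate 4, 658 without replicate 5 and 128 without MP100_PB replicate 5. Without each of the others the count was 134 to 232. Across all 25 alternatives, 7 regions held in every one, and they are named here after their values were seen. Lower in DEN30_PB were Micb, Ms4a4c, Bbs2, Dnm1 and Lrrc2, and higher were Fbxw2 and Galt. Bbs2, a subunit of the complex that carries membrane proteins to cilia, averaged 40.9 ± 10.6 in DEN30_PB, against 63.9 ± 18.1 in TAA45_PB and 74.2 ± 14.2 in MP100_PB (SD, n = 5 each). Galt, the enzyme of galactose metabolism deficient in galactosaemia, averaged 55.4 ± 5.47 in DEN30_PB, against 32.5 ± 6.20 in TAA45_PB and 32.0 ± 12.6 in MP100_PB. Micb, a class I-like molecule of the immune system, averaged 31.0 ± 8.41 in DEN30_PB, against 52.9 ± 16.9 and 50.7 ± 9.37 in TAA45_PB and MP100_PB. Their pooled differences were -0.74 for Bbs2, 0.80 for Galt and -0.72 for Micb, and of the 7 regions none passed the adjusted threshold except Ms4a4c.

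**Figure D2:**
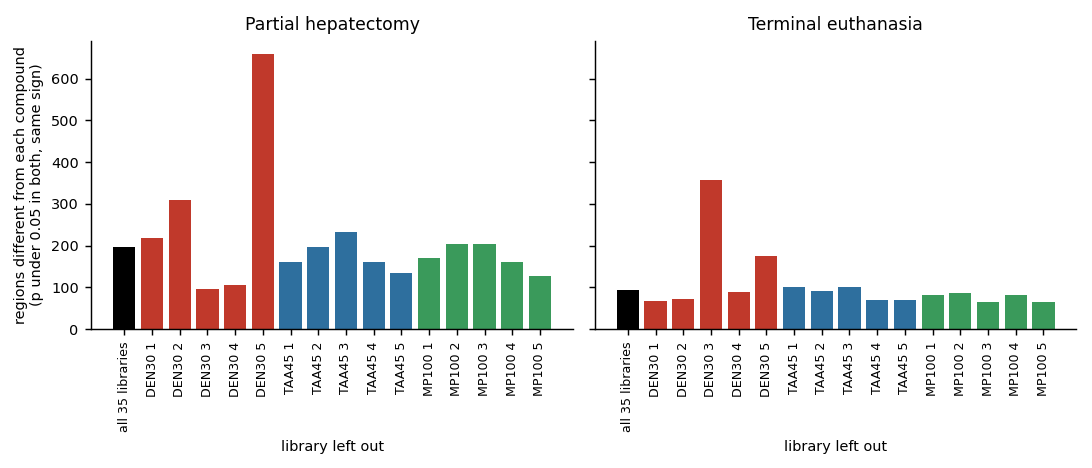
Number of regions that differed from each compound (unadjusted limma p under 0.05 in both contrasts, same sign) with all 35 libraries of a time (black) and with each library left out in turn (red DEN30, blue TAA45, green MP100). The axis starts at 0. The count with all libraries is 197 at partial hepatectomy and 93 at terminal euthanasia, and it ranges over 97 to 658 and 64 to 358 with 1 library left out.

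Ercc5, the nuclease that cuts the damaged strand in nucleotide excision repair, was among the 125 lower regions. At chr9:43243523-43249148 (plus strand) it had signals of 79.4, 77.8, 47.0, 64.2 and 86.2 in DEN30_PB. TAA45_PB had 90.5, 121, 88.2, 111 and 133, and MP100_PB had 94.4, 132, 129, 98.5 and 98.9. All 5 DEN30_PB libraries lay below all 10 others. The pooled difference was -0.63 (SE 0.16, unadjusted p = 0.000127), which did not pass after adjustment (limma adjusted p = 0.634), and the criterion against each compound was met with each library left out in turn and in 24 of 25 alternatives. In all, 11 of 15809 regions did not overlap between DEN30_PB and the other 10 libraries (0.0696%), 8 higher (0.0506%) and 3 lower (0.019%). The other lower ones were Msmb and the second region of Tmprss11d. Mff, Fam21c, Pde8a, Serpina3n, Gsc, Klrb1 and Pgr were among the higher ones. Without the weakly enriched libraries 76 regions did not overlap, since fewer libraries then have to agree. Over so many regions some separate whatever the groups are. How many would do so was not computed, so these counts are only a description.

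Mff, the mitochondrial fission factor that recruits the dynamin-like fission enzyme, had signals of 48.7, 52.6, 72.9, 71.3 and 71.9 in DEN30_PB at chr9:82040736-82046361 (plus strand). TAA45_PB had 40.8, 20.5, 33.7, 41.5 and 42.1, and MP100_PB had 48.6, 39.7, 38.9, 44.4 and 35.6. DEN30_PB lay above both, with a gap between the lowest DEN30_PB and the highest MP100_PB library that is far smaller than the spread within any group. The pooled difference was 0.71 (SE 0.22, unadjusted p = 0.0023). The region no longer met the criterion without the weakly enriched libraries.

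Other regions of above-median signal that met the criterion were named by size, up to 8 in each direction. Lower in DEN30_PB by this criterion was a region of Ddah2 that the files list as Ddah2_dup1, an enzyme that degrades inhibitors of nitric oxide synthesis. It averaged 64.5 ± 20.2 in DEN30_PB, against 123 ± 19.2 in TAA45_PB and 101 ± 20.3 in MP100_PB (difference -0.83). Pla2g7, which inactivates platelet-activating factor, averaged 149 ± 45.3 in DEN30_PB, against 214 ± 24.5 and 230 ± 48.4 in TAA45_PB and MP100_PB (difference -0.61). Aadat, an aminotransferase of lysine and kynurenine breakdown, averaged 63.5 ± 9.20 in DEN30_PB, against 94.7 ± 18.7 and 102 ± 15.9 in TAA45_PB and MP100_PB (difference -0.62). Fshr, Gcnt2_dup2 and MGC114427 had differences of -0.60, -0.58 and -0.63. On the higher side, Tnfrsf18, a costimulatory receptor of T cells, averaged 91.9 ± 11.9 in DEN30_PB, against 63.5 ± 15.3 in TAA45_PB and 62.9 ± 17.3 in MP100_PB (difference 0.56). Kcnk13, a potassium channel, Lcn12, a lipocalin, Matk, a tyrosine kinase of blood cells, and the microRNA gene Mir3567 had differences of 0.54, 0.49, 0.46 and 0.48. None of these passed the adjusted threshold. Of these named regions Tnfrsf18, Kcnk13, Lcn12 and Mir3567 met the criterion without the weakly enriched libraries, whereas Ddah2_dup1, Pla2g7, Aadat, Fshr, Gcnt2_dup2, MGC114427 and Matk did not.

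**Figure D3:**
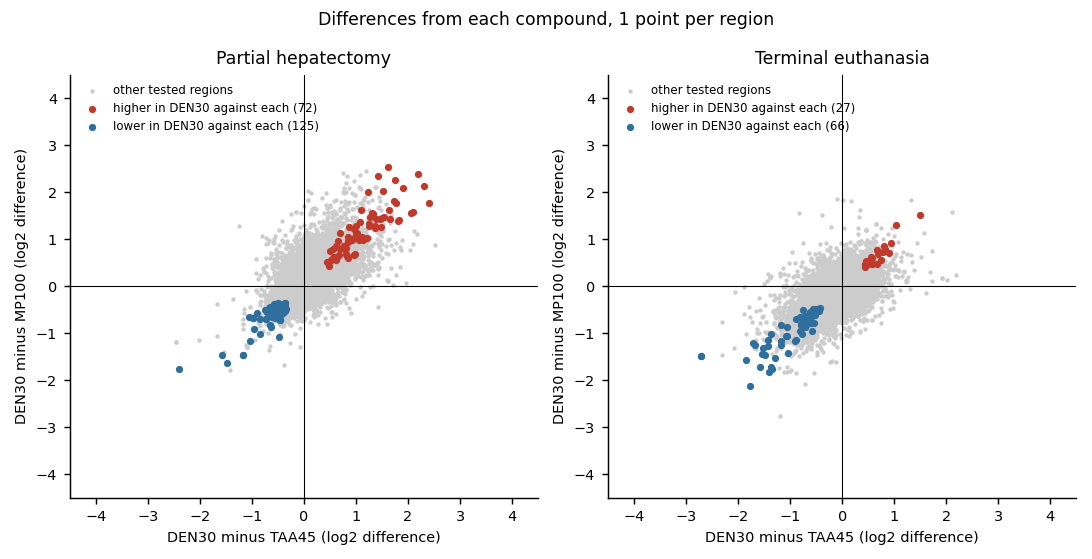
Difference of DEN30 from TAA45 (horizontal) and from MP100 (vertical) on the log2 scale, 1 point per tested region, at partial hepatectomy (left) and terminal euthanasia (right). Coloured points met an unadjusted p under 0.05 in both contrasts with the same sign, 72 red and 125 blue at hepatectomy and 27 red and 66 blue at terminal euthanasia; the cloud runs along the diagonal in part because both axes subtract from the same DEN30 libraries.

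Where the 2 nongenotoxic compounds differed most from each other at hepatectomy, no region passed either. Slc7a11, the cystine importer that feeds glutathione synthesis, had the smallest p of that contrast. It averaged 136 ± 34.2 in DEN30_PB, 151 ± 41.7 in TAA45_PB and 86.1 ± 5.80 in MP100_PB. DEN30_PB minus MP100_PB was 0.62 (unadjusted p = 0.00102), and DEN30_PB minus TAA45_PB was -0.15. Its lowest DEN30_PB library lay above the highest of MP100_PB. RT1-S2, a class Ib molecule of the rat major histocompatibility complex, had the smallest p against TAA45_PB. It had 116, 48.4, 120, 179 and 68.8 in DEN30_PB, against 40.8, 65.5, 0.01, 9.21 and 48.4 in TAA45_PB and 83.0, 77.6, 34.4, 27.5 and 61.1 in MP100_PB at chr20:2789849-2795474. The value of 0.01 is the placeholder for no read. DEN30_PB minus TAA45_PB was 2.52 (limma adjusted p = 0.103), and this region passed in 4 of 25 alternatives, with adjusted p from 0.00526 to 1.0. The RT1 genes are a family of near-identical copies that differ between outbred animals, so reads may be split between them.

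At terminal euthanasia, no region differed between DEN30_PB and the nongenotoxic groups, pooled or one at a time. The smallest unadjusted p of the pooled comparison was that of Olr816, an olfactory receptor gene, with a higher signal in DEN30_PB. Next to it by the weaker criterion stood Mir3569 on the higher side and RGD1309870, Clec14a and Lrch1 on the lower side. Of 16008 tested regions, 0 passed the adjusted threshold in the pooled comparison (0.0%), against TAA45_PB (0.0%), against MP100_PB (0.0%) and between TAA45_PB and MP100_PB (0.0%). At an unadjusted p under 0.05 the limma counts were 456 pooled (2.85%; 1.05% higher and 1.8% lower in DEN30_PB), 438 against TAA45_PB (2.74%), 409 against MP100_PB (2.55%) and 312 between the nongenotoxic groups (1.95%). The smallest limma adjusted p was 1 in the pooled comparison and 0.712 against TAA45_PB. The criterion against each compound was met by 93 regions (0.581%), 27 higher (0.169%) and 66 lower (0.412%) in DEN30_PB.

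Olr816 (chr4:70877012-70882637, plus strand) had signals of 75.4, 96.7, 97.5, 76.6 and 120 in DEN30_PB. TAA45_PB had 43.9, 50.5, 54.6, 33.6 and 66.2, and MP100_PB had 60.5, 70.5, 44.0, 56.2 and 50.8. All 5 DEN30_PB libraries lay above all 10 others. The pooled difference was 0.81 (SE 0.21, unadjusted p = 0.000327) and the limma adjusted p was 1. Within blocks it lay above TAA45_PB by 0.84, 1.00 and 0.84 in blocks 1, 3 and 4, and above MP100_PB by 0.78 and 1.22 in blocks 3 and 4. At hepatectomy the same region had the opposite sign, at -0.37. MC_PB averaged 64.2 ± 32.2 at terminal euthanasia, with 1 library at 121.

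Mir3569, whose mature sequence is shown above, had signals of 220, 179, 104, 174 and 193 in DEN30_PB at chr1:85630469-85636094 (plus strand). TAA45_PB had 84.3, 104, 110, 72.0 and 144, and MP100_PB had 130, 135, 81.4, 108 and 125. Every DEN30_PB library except the weakly enriched replicate 3 lay above all 10 others. The difference was 0.65 (unadjusted p = 0.000575), and at hepatectomy it was -0.09. The region measures methylation around the microRNA gene and says nothing of how much of the microRNA was made.

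Across the 25 alternatives, 4 regions of this time held in every one, named after their values were seen. Higher in DEN30_PB were Olr816, Mir3569 and Spp2, a secreted phosphoprotein made by the liver, and lower was Plod1, a lysyl hydroxylase of collagen. Spp2 averaged 153 ± 29.7 in DEN30_PB, against 111 ± 23.8 in TAA45_PB and 109 ± 16.7 in MP100_PB. Plod1 averaged 36.4 ± 7.21 in DEN30_PB, against 62.8 ± 14.4 and 61.05 ± 14.9 in TAA45_PB and MP100_PB. Without the weakly enriched libraries 17 of the 27 higher regions (63%) and 46 of the 66 lower ones (69.7%) still met the criterion, more than at hepatectomy, where 2 such libraries sat in DEN30_PB and none in the other 2 groups. Here each of the 3 groups had 1, so the number of DEN30_PB libraries left also differed between the times. Leaving out DEN30_PB replicate 3 alone gave 358 regions and DEN30_PB replicate 5 alone gave 175, and without each of the others the count was 64 to 101. Trak2, an adaptor of mitochondrial transport, had the smallest p against MP100_PB, at -2.09 on few reads, with 7.21 ± 6.22 in DEN30_PB, against 13.8 ± 13.8 in TAA45_PB and 29.7 ± 10.6 in MP100_PB.

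Named by size among the regions of above-median signal, RGD1309870 averaged 48.2 ± 13.8 in DEN30_PB, against 74.5 ± 9.99 in TAA45_PB and 76.5 ± 17.7 in MP100_PB (difference -0.66). Clec14a, a lectin of endothelial cells, averaged 65.1 ± 20.04 in DEN30_PB, against 110 ± 29.6 and 93.6 ± 27.6 in TAA45_PB and MP100_PB (difference -0.64). Lrch1, Olr390, Nup37 of the nuclear pore, the calcium-binding protein Calb1 and Prr7 had differences from -0.60 to -0.49. Ddx49, an RNA helicase, averaged 84.7 ± 13.7 in DEN30_PB, against 54.1 ± 14.6 and 60.9 ± 9.29 in TAA45_PB and MP100_PB (difference 0.57). Timm17b, part of the mitochondrial protein import channel, averaged 91.1 ± 6.85 in DEN30_PB, against 64.6 ± 24.8 and 64.9 ± 10.6 in TAA45_PB and MP100_PB (difference 0.53). B3gat1, Rxfp2, Zbtb7b and Slc25a23 had differences of 0.52, 0.50, 0.52 and 0.47. The libraries did not overlap in 9 of 16008 regions (0.0562%), 4 higher (0.025%), which were Ddx49, Olr816, Htr1d and Clcn5, and 5 lower (0.0312%), which were Prr7, Prl3d4, Cd52, Rpl29 and Stk17b. As at hepatectomy, this count is only a description. Without the weakly enriched libraries Lrch1, Prr7, Olr390, Slc25a23 and Timm17b no longer met the criterion, whereas RGD1309870, Clec14a, Nup37, Calb1, Ddx49, B3gat1, Rxfp2 and Zbtb7b did. Of those without overlap, Stk17b, a kinase linked to apoptosis, ranged over 4.37 to 15.2 in DEN30_PB, against 15.9 to 34.6 in the other 10 libraries.

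Klhdc9 and the RT1 genes show why the 2 compounds were also taken singly. Klhdc9 averaged 82.0 ± 11.8 in DEN30_PB, against 149 ± 44.4 in TAA45_PB and 105 ± 11.4 in MP100_PB at terminal euthanasia. Its difference was -0.82 from TAA45_PB (unadjusted p = 0.00016, limma adjusted p = 0.712) and -0.35 from MP100_PB (unadjusted p = 0.09), so it did not meet the criterion. MC_PB averaged 84.9 ± 19.4, so DEN30_PB was at the control level and TAA45_PB stood apart. RT1-S2 repeated its hepatectomy order against TAA45_PB, at 2.02 (limma adjusted p = 0.712), and differed from MP100_PB by only 0.13. RT1-CE5 (chr20:3512607-3518232), a class I gene, had 16.4, 2.17, 2.12, 0.01 and 0.01 in DEN30_PB. TAA45_PB had 16.6, 4.39, 36.7, 23.0 and 23.1, and MP100_PB had 7.12, 0.928, 7.66, 24.5 and 7.73. DEN30_PB was mostly at a few reads and overlapped both groups. Replicate 1 lay within the range of TAA45_PB, and replicates 1, 2 and 3 within that of MP100_PB. Its difference was -2.10 on the log2(signal + 1) scale (unadjusted p = 0.000714). It met the criterion, but not without the weakly enriched libraries. At hepatectomy it was -1.82, with -2.47 from TAA45_PB and -1.18 from MP100_PB (unadjusted p = 0.16), which missed the criterion.

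The 2 times shared few regions. Of 15740 regions tested at both, 1 met the criterion with the same sign at both times, Lrrc2, a leucine-rich repeat protein. That is 0.508% of the 197 regions of hepatectomy, beside 0.581% of all tested regions that met the criterion at terminal euthanasia in either direction. Of the 93 regions of terminal euthanasia it is 1.08%, beside 1.25% of all tested regions that met the criterion at hepatectomy. Also 1 region, Vax1, a homeobox gene of few reads, met the criterion with opposite signs (1.54 at hepatectomy and -1.62 at terminal euthanasia). Lrrc2 (chr8:115350858-115356483, plus strand) had 52.9, 59.9, 46.0, 90.3 and 101 in DEN30_PB at hepatectomy, against 78.4, 179, 152, 70.02 and 173 in TAA45_PB and 105, 73.1, 147, 76.3 and 180 in MP100_PB. At terminal euthanasia it had 69.9, 52.1, 76.3, 104 and 126 in DEN30_PB, against 93.8, 111, 181, 75.9 and 160 in TAA45_PB and 147, 125, 118, 102 and 146 in MP100_PB. DEN30_PB was lower on average both times and overlapped both groups both times. The differences were -0.77 (unadjusted p = 0.000521) and -0.57 (unadjusted p = 0.00702), and neither passed after adjustment. Lrrc2 was lost from the overlap in 5 of the 15 settings that left out 1 numbered replicate of a group at both times (DEN30_PB 1, 2 or 3 and TAA45_PB 3 or 5) and without the filter on low values. With 1 numbered replicate left out, 0 to 6 regions met the criterion with the same sign at both times, the 6 without DEN30_PB replicate 5 and 3 each without MP100_PB replicate 2 or TAA45_PB replicate 4. The count was 2 without each of MP100_PB replicates 1, 3 and 5, 0 without DEN30_PB 1, 2 or 3 or TAA45_PB 3 or 5, and 4 without the weakly enriched libraries.

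The signs of the regions that met the criterion were also read at the other time. Of the 72 higher ones, 23 had a positive and 49 a negative difference at terminal euthanasia (31.9% positive), and of the 125 lower ones 74 were positive (59.2%), beside 52.3% of all tested regions. In reverse, 10 of the 27 regions higher at terminal euthanasia (37%) and 39 of the 66 lower ones (59.1%) had a positive difference at hepatectomy, beside 45.3% of all tested regions. These shares were not tested, and the weakly enriched libraries were not the same at the 2 times. A limma fit of all 70 libraries asked whether the pooled difference changed between the times. It took the libraries as independent, although same-numbered ones of the 2 times may come from the same rats. Of 16385 regions, 0 passed after adjustment (0.0%) and 1013 had an unadjusted p under 0.05 (6.18%). The smallest adjusted p was 0.764.

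**Figure D4:**
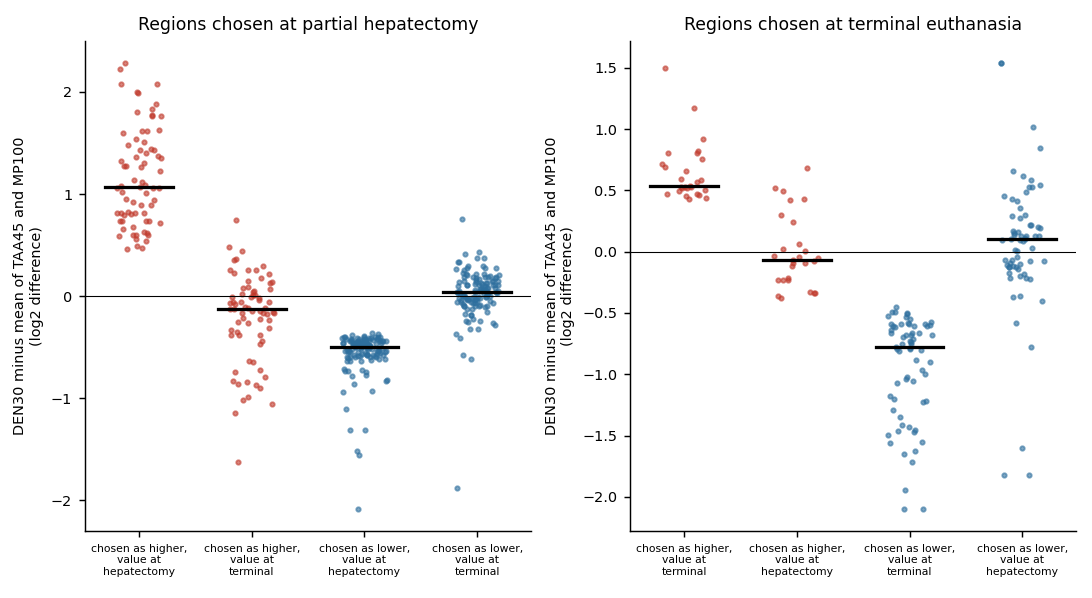
Log2 difference of DEN30 from the mean of TAA45 and MP100 for the regions that met the criterion at partial hepatectomy (left) and at terminal euthanasia (right), shown at the time that chose them and at the other time; thick lines are medians. The regions chosen as higher at hepatectomy have a median of 1.07 there and -0.13 at terminal euthanasia, and those chosen as lower have -0.50 and 0.04.

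Gene lists tied to the question had 0 members past the adjusted threshold of the pooled comparison at either time, in all 14 lists. Regions of a list that share coordinates or overlap are counted here as 1 place. Over all tested regions, 45.5% were positive at hepatectomy and 51.9% at terminal euthanasia. DNA repair and p53 response, the list closest to a genotoxic agent, had 14 positive and 19 negative of 33 tested places at hepatectomy (median -0.06) and 18 and 16 of 34 at terminal euthanasia (median 0.02). The medians over all tested regions were -0.03 and 0.01. Cdkn1a, the cell-cycle inhibitor that p53 induces, was its 1 member of 33 places that met the criterion, beside 1.25% of all tested regions. It averaged 39.8 ± 17.2 in DEN30_PB, against 57.1 ± 19.5 in TAA45_PB and 59.7 ± 14.3 in MP100_PB at hepatectomy (difference -0.60), and it no longer met it without the weakly enriched libraries. Mgmt, which removes alkyl groups from guanine, averaged 21.3 ± 7.48 in DEN30_PB, against 21.3 ± 5.33 and 22.5 ± 5.04 in TAA45_PB and MP100_PB at hepatectomy (difference -0.07). Ercc5 was not in this list. At terminal euthanasia Lig1, a DNA ligase, and Bax, which promotes apoptosis, had differences of 0.41 and -0.45 without meeting the criterion.

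The enzymes that activate or detoxify the 3 compounds had 12 positive and 6 negative of 18 regions at hepatectomy and 8 and 10 at terminal euthanasia. The list of Nrf2 and oxidative stress had 10 and 11 of 21, then 13 and 8. Within it Gsr, glutathione reductase, averaged 36.5 ± 15.05 in DEN30_PB, against 63.1 ± 11 in TAA45_PB and 41.4 ± 15.3 in MP100_PB at hepatectomy, and Sod1, superoxide dismutase, had a difference of -0.64. Gsr and Sod1 did not meet the criterion. Preneoplastic focus markers had 6 positive and 9 negative of 15 at each time. Their leading member Gstp1, the placental glutathione transferase of rat liver foci, averaged 37.4 ± 13.2 in DEN30_PB, against 26.6 ± 9.87 in TAA45_PB and 29.1 ± 4.305 in MP100_PB at hepatectomy (difference 0.39). Without block 3 the Gstp1 difference was -0.02. At terminal euthanasia it was -0.11. Commd3 and R3hdm2, genes fixed for naming from other comparisons of these libraries, had differences of 0.34 and 0.80 at hepatectomy and 0.06 and 0.35 at terminal euthanasia. R3hdm2 met the criterion at hepatectomy, with 53.8 ± 19.2 in DEN30_PB, against 30.0 ± 7.46 in TAA45_PB and 29.5 ± 5.21 in MP100_PB, but not without the weakly enriched libraries.

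Tumour suppressors often silenced in liver cancer had 9 positive and 14 negative of 23 places at hepatectomy and 10 and 14 of 24 at terminal euthanasia. Socs1, which restrains cytokine signalling, had a difference of -0.43 at hepatectomy, and Sfrp4, a Wnt antagonist, one of -0.94 at terminal euthanasia. Socs1 and Sfrp4 did not meet the criterion. Rb1, the retinoblastoma protein, was 1 of the 24 places to meet the criterion at terminal euthanasia, beside 0.581% of all tested regions, with 31.5 ± 18.9 in DEN30_PB, against 42.2 ± 7.20 in TAA45_PB and 43.5 ± 7.29 in MP100_PB. Rb1 met the criterion in 11 of 25 alternatives and in 6 of the 15 that left out 1 library. Wt1, of the same list, had -0.07 and -0.36 at the 2 times. Imprinted genes had 11 positive and 14 negative of 25 places at hepatectomy, and 20 and 5 at terminal euthanasia (median 0.10), where 51.9% of all tested regions were positive. At hepatectomy the first region of Rasgrf1 had a difference of 1.46 on few reads and did not meet the criterion. Of the imprinted genes Grb10 had a difference of 0.41 at terminal euthanasia without meeting the criterion. Ube3a had a difference of -1.02 at that time, with 8.92 ± 4.55 in DEN30_PB, against 18.4 ± 11.6 and 19.6 ± 5.70 in TAA45_PB and MP100_PB. Ube3a met the criterion, 1 of 25 places, in 13 of 25 alternatives, but not without the weakly enriched libraries.

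Cell cycle genes had 12 positive and 8 negative of 20 regions at hepatectomy (median 0.13) and 4 and 17 of 21 at terminal euthanasia (median -0.09). Myc, which drives proliferation, had 20.7 ± 11.3 in DEN30_PB, against 10.04 ± 2.33 in TAA45_PB and 10.8 ± 5.28 in MP100_PB at hepatectomy (difference 0.83). Methylation machinery had 6 and 8 of 14 at each time, and the first region of Hells, a chromatin remodeller needed for DNA methylation, had a difference of 1.12 at hepatectomy. Across the alternatives this difference ran from 0.479 to 1.447. Myc and Hells did not meet the criterion. Among cell type markers, hepatocyte genes had 7 and 8 of 15 at each time, and 1 of them, Serpina1, met the criterion at terminal euthanasia, beside 0.581% of all tested regions. It averaged 17.9 ± 13.5 in DEN30_PB, against 36.3 ± 11.9 in TAA45_PB and 29.1 ± 13.3 in MP100_PB. Biliary and progenitor markers had 6 and 5 of 11, then 7 and 4. Stellate and fibroblast markers had 7 and 8 of 15, then 8 and 8 of 16, and Pdgfrb, the receptor of stellate cells, met the criterion at hepatectomy, beside 1.25% of all tested regions, with a difference of -0.42, though not without the weakly enriched libraries. Ddr2, a collagen receptor, had 0.60 and -0.76 at the 2 times, and Tagln, a smooth muscle protein, had 0.41 at terminal euthanasia. Ddr2 and Tagln did not meet the criterion. Macrophage markers had 5 and 9 of 14, then 8 and 6, with lysozyme Lyz2 at -0.39 at hepatectomy. Endothelial markers had 2 and 4 of 6, then 6 and 0, with Lyve1 at -0.35 and Tie1 at -0.30 at hepatectomy. Of these markers of macrophages and endothelium none met the criterion. Lymphocyte markers had 4 and 11 of 15, then 9 and 6. A marker's methylation does not count cells of its type. Their part in the results was not tested.

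The regions were also set beside groups that the criterion did not contrast, although all 7 groups entered its filter and its estimate of the spread. MC_PB lay nearer to the mean of the nongenotoxic groups than to DEN30_PB in 64 of the 72 higher regions (88.9%) and 108 of the 125 lower ones (86.4%) at hepatectomy, beside 64.3% of all tested regions. Choosing regions in which DEN30_PB stands apart raises this share by itself, so it is only a description. The lower dose, DEN3_PB at 3 mg/kg, shares no library with the groups contrasted or with MC_PB. It does share blocks with them. DEN3_PB had blocks 1, 2 and 4, whereas MC_PB had blocks 1, 2 and 3. Like DEN30_PB, DEN3_PB thus had a library of block 4, and MC_PB had none. Replicate 5 of MC_PB at terminal euthanasia was also weakly enriched. Dose, block and enrichment cannot be told apart in DEN3_PB minus MC_PB. This difference was positive in 48 of the 72 higher regions (66.7%) and 63 of the 125 lower ones (50.4%) at hepatectomy, beside 53.2% of all. At terminal euthanasia it was positive in 22 of the 27 higher regions (81.5%) and 21 of the 66 lower ones (31.8%), beside 60.1% of all. These shares were not tested, since neighbouring and overlapping regions are not independent.

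The authors' deposited table of peaks compares DEN at 30 mg/kg with phenobarbital alone and uses the same DEN30_PB libraries, so it is no independent check. A peak higher in DEN30_PB overlapped 11 of the 72 higher regions at hepatectomy (15.3%), beside 5.6% of all tested regions, and a lower peak overlapped 5 of the 125 lower ones (4%), beside 0.418%. Tbx3 was 1 of these. At terminal euthanasia, if the later time of that table is this one, 0 of the 27 higher regions had a higher peak, beside 0.581%, and 5 of the 66 lower ones had a lower peak (7.58%), beside 0.975%. Regions were also sorted by the number of CG in the RefSeq promoter. At hepatectomy the share of lower regions was 0.997% in the lowest of 4 equal parts, with 0 to 5 CG, and 0.905% in that with 27 to 66 CG. The shares between these were 0.610% and 0.604%, so no order with CG content was seen. By chromosome, 2.19% to 2.21% of tested regions met the criterion at hepatectomy on chromosomes 6, 9 and 20, 0.666% on chromosome 1 and 0.652% on chromosome 15. At terminal euthanasia chromosomes 6, 9 and 20 had 0.769%, 0.916% and 0.792%. These shares were not tested, and overlapping regions are counted singly in them.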

How the data were processed

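Each of the 70 libraries held liver DNA of a rat, from which methylated fragments were enriched with the MethylMiner kit and read on a SOLiD 4, per the labels' protocols. The authors deposited 1 signal value per library for 17174 regions. Each value was a whole number of reads, within 0.01 for every one, times a factor of the library (50 M over a whole number), with 0.01 for no read. What that total counts is not stated, and the aligner and genome build were not given in the sources used here. The deposited peak list gives read counts per peak, per the file headers, and was used for overlaps of 1 bp or more. Its 2 time labels were read as hepatectomy and terminal euthanasia.

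Signals were taken as log2(signal + 1), and regions entered the test if 10 or more was reached in at least 5 of the 35 libraries of a time. limma 3.58.1 in R 4.3.3 was fitted with 1 mean per group, a shared spread with a trend, and Benjamini-Hochberg adjustment at 0.05, and the fit was tested on simulated data. Since 3657 regions overlap another, counts of regions exceed counts of places. Precision is limited by the median of 41 to 65 reads per region in the 3 groups and by 5 libraries per group.

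Named regions were, per time, called regions of above-median signal, the 8 or fewer per direction with the largest differences among such regions that met the criterion against each compound, those that met it at both times, up to 2 members per gene list with an unadjusted p under 0.05, and 10 fixed genes. Regions with the smallest p of a contrast were added. The groups, gene lists and fixed genes were chosen with earlier results of these data known. Alternatives changed the pseudocount, the filter, the scaling, the libraries and the blocks.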

Additional observations from a re-analysis of the deposited data

Results flagged for a closer look

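In each group of 5 libraries, the library farthest from its nearest neighbour was marked where that gap exceeded 0.71 of the group's range, Dixon's critical value for 5. This marked 17 of 267 groups, and chance alone marks about 1 group in 20.

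At terminal euthanasia DEN30_PB had 4 marked values in replicates 3 and 4 of named regions and 1 in replicate 1. Replicate 3, a weakly enriched library, had 41.34 at Serpina1, where the next highest had 15.29. It also had 124 at Tagln, where the next lowest had 170.4, and 18.02 at Trak2, where the next highest had 6.212. Replicate 4 had 75.58 at Bax, where the next had 49.82. Replicate 1 had 16.38 at RT1-CE5, where the next had 2.173. At hepatectomy DEN30_PB replicate 5 had 125.3 at Fshr, against 65.24 in the next, and replicate 1 had 67.72 at Matk, below 84.1 in the next.

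In TAA45_PB, terminal replicate 4 had 66.27 at Vax1 (next 15.44), terminal replicate 5 had 113.5 at Olr390 (next 63.38), and hepatectomy replicate 5 had 224.3 at Slc7a11 (next 141) and a median log2 signal of 6.004 (next 5.76). In MP100_PB, terminal replicate 5 had 101.5 at Lrch1 (next 74.65), terminal replicate 1 had 44.51 at Ddx49 (next 63.09) and terminal replicate 4 had 24.49 at RT1-CE5 (next 7.725). Its terminal replicate 3 had 0.8152% of regions with no read (next 2.777%). Its hepatectomy replicate 5 had 141.1 at Fshr (next 90.59) and 402.3 at Lyz2 (next 226.5).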

How the results depend on the processing

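At hepatectomy the pooled count of 1 became 0 with the library-number block as a covariate, with no filter, with only the 15 libraries of the 3 groups, and without block 4, and 2 without the weakly enriched libraries (Ms4a4c and Exd1). The count against MP100_PB became 0 with no filter or only the 15 libraries, and that against TAA45_PB became 1 (RT1-S2) without block 4. At terminal euthanasia quantile normalization gave 1 region against TAA45_PB (Klhdc9). Leaving out 1 library gave 0 to 2 pooled, 0 to 1 against MP100_PB and 0 to 1 against TAA45_PB at hepatectomy. Regions meeting the criterion against each compound numbered 300 under quantile normalization, 76 without block 3, 346 without block 4 and 130 without the weakly enriched libraries at hepatectomy (97 to 658 with 1 library left out). At terminal euthanasia they numbered 143 under quantile normalization, 172 without block 3 and 189 without the weakly enriched libraries (64 to 358 with 1 left out). Regions without overlap numbered 20 under quantile normalization and 76 without the weakly enriched libraries at hepatectomy (14 to 106 with 1 left out), and 80 without the weakly enriched libraries at terminal euthanasia (9 to 72). Regions meeting the criterion at both times numbered 3 with the library-number block, 0 with no filter, 2 with only the 15 libraries and 4 without the weakly enriched libraries (0 to 6 with 1 numbered replicate left out). Fewer libraries or more regions tested enter by construction in the settings that leave out libraries or the filter; for the others the cause was not tested. Dropping the blocks was added after seeing the data.

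The main fit did not pair libraries by replicate number. Over 30 same-numbered pairs within a time the correlation of deviations ran from -0.433 to 0.721, with 13 over 0.1. Over 15 same-numbered pairs of the 2 times it ran from -0.32 to 0.675, with 6 over 0.1. A fit of both times that took same-numbered libraries of every group as 1 animal put the correlation between them at 0.0975. The counts of that fit are not given here. Pairs of unlike numbers were not computed, so these values cannot decide whether the numbers pair the libraries. With the replicate block the counts at hepatectomy were 1 pooled, 0 against TAA45_PB, 1 against MP100_PB and 197 against each, and at terminal euthanasia 0, 0, 0 and 123. edgeR and DESeq2 were planned on recovered reads and are not reported, since the deposited values are scaled and not counts.

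Without the weakly enriched libraries the hepatectomy differences between DEN30_PB and the other groups turned to 0.344 in the percentage of regions with no read and 0.0584 in the CG-rich minus CG-poor median. With 1 library left out, the hepatectomy CG contrast ran from -0.0849 to 0.00242 and the median log2 signal from -0.0162 to 0.0361. At terminal euthanasia these ran from -0.00897 to 0.0606 and from -0.0791 to 0.0193, and reads in regions, in M, from -0.0927 to 0.0263. Log2 differences near 0 turned sign as follows. Without block 3, Gstp1 was -0.0194 at hepatectomy and 0.19 at terminal euthanasia, Ddx49 at hepatectomy 0.0781, and at terminal euthanasia Ms4a4c was -0.54, Commd3 -0.15, Ercc5 0.0265 and Mff -0.27. Without the weakly enriched libraries, Ddx49 at hepatectomy was 0.10, and at terminal euthanasia Commd3 was -0.0323, Ercc5 0.0547 and Mff -0.0441. Without block 4, Mgmt at hepatectomy was 0.17 and Slc7a11 at terminal euthanasia -0.000536. With 1 library left out, the ranges at hepatectomy were -0.24 to 0.0944 for Mgmt, -0.18 to 0.0292 for Ddx49 and -0.28 to 0.11 for Wt1. At terminal euthanasia they were -0.48 to 0.0233 for Mgmt, -0.23 to 0.0487 for Gstp1, -0.32 to 0.61 for Ms4a4c, -0.0425 to 0.17 for Commd3, -0.0747 to 0.13 for Slc7a11, -0.20 to 0.10 for Ercc5 and -0.0634 to 0.24 for Mff.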
